A study of Mus musculus with 16 samples.

Results

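The epidermal growth factor (EGF) receptor family and its epidermal ligands were followed in dorsal skin, taken whole, from female C57/B6 mice (the sample titles write C57/B7) that had a topical Janus kinase (JAK) inhibitor or its vehicle. The 9 genes were chosen by symbol: the receptors Egfr, Erbb2 and Erbb3 and the ligands Areg, Ereg, Hbegf, Tgfa, Btc and Epgn. A gene was read from probe sets that the array's annotation ties to its symbol alone, and the probe set with the highest mean over all 16 arrays stood for it. This gave 8 of the 9 genes, through 19 probe sets, among 12087 genes tested. The annotation table used here names no probe set for Areg, so Areg was not analysed here.

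The arrays fell into 4 groups. At day 5, after 4 days of daily application, there were 3 arrays of tofacitinib (mice 7, 8 and 9), 2 of ruxolitinib (mice 4 and 6) and 2 of dimethyl sulfoxide (DMSO, the vehicle, mice 2 and 3). At day 0, before treatment and at 8.5 weeks of age, there were 9 arrays (mice 1 to 9), so 7 mice were sampled on both days. Their day-5 sample came from skin that had already been biopsied once. The labels state no genetic change, and no dose is given in the sources used here. For the day-5 array of mouse 7 the title, source and treatment fields say tofacitinib but the description says ruxolitinib, and it was kept as tofacitinib. Both drugs block the kinases that carry cytokine receptor signals to STAT transcription factors. They share a pyrrolopyrimidine ring: tofacitinib carries a substituted piperidine on it, and ruxolitinib a pyrazole.

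EGF receptor signalling runs through pairs of receptors. Egfr binds ligand and has a kinase. Erbb2 has a kinase and no known ligand of its own, and Erbb3 binds neuregulins and depends on its partners' kinases. The ligands are made as membrane-bound precursors and are shed by metalloproteases such as Adam17. In epidermis the pathway sustains proliferation of basal keratinocytes, delays their differentiation and is drawn on when a wound is closed, and several of its ligands are made by keratinocytes themselves.

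The values are log2 GCRMA values, so a difference of 1 is a doubling of the estimated signal, and levels were compared between groups for 1 gene at a time. Array medians lay between 3.75 and 3.94, and 27 control probe sets without a target reached at most 2.43. The chosen probe set of each of the 8 genes exceeded the filter value of 4 on 16 of 16 arrays, so no gene entered the test through 1 group. Differences come from a limma fit over all tested genes with the mouse as a random block, and a gene passed at an adjusted p (Benjamini-Hochberg over all tested genes) under 0.05. Errors of differences are standard errors and the number of arrays limits their precision.

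Erbb2 fell in all 3 day-5 groups, and Egfr and Erbb3 fell with tofacitinib and DMSO but did not pass with ruxolitinib. Erbb2 (Entrez gene 13866, chromosome 11) stood at 7.20, 5.91 and 6.73 in tofacitinib skin of mice 7, 8 and 9, at 6.33 and 7.06 in ruxolitinib skin of mice 4 and 6 and at 6.50 and 6.31 in DMSO skin of mice 2 and 3, against 8.27 at the lowest, 8.59 at the median and 9.31 at the highest of the 9 day-0 arrays. Every day-5 array therefore lay below every day-0 array. It fell by 2.13 ± 0.28 with tofacitinib on the log2 scale (limma adjusted p = 3.86e-05). It fell by 2.001 ± 0.33 with ruxolitinib (limma adjusted p = 0.00041) and by 2.32 ± 0.33 with DMSO (limma adjusted p = 7.53e-05). With a fixed block for the mouse, ruxolitinib no longer passed (-1.73, limma adjusted p = 0.0582).

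Erbb3 (Entrez gene 13867, chromosome 10) fell less. Its levels were 10.80, 10.21 and 10.33 with tofacitinib, 10.44 and 11.05 with ruxolitinib and 9.80 and 10.46 with DMSO, against 10.97, 11.22 and 11.68 (lowest, median and highest) at day 0. The ruxolitinib array of mouse 6 reached into the day-0 range and the other 6 day-5 arrays lay under it. Erbb3 fell by 0.86 ± 0.19 with tofacitinib (limma adjusted p = 0.00185) and by 1.16 ± 0.22 with DMSO (limma adjusted p = 0.000686), while the ruxolitinib difference of -0.53 ± 0.22 did not pass (limma adjusted p = 0.0745).

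Egfr (Entrez gene 13649, chromosome 11), the receptor that binds the ligands described here, stood at 10.76, 9.88 and 9.83 with tofacitinib, 10.45 and 10.59 with ruxolitinib and 9.88 and 10.19 with DMSO, against 10.59, 10.96 and 11.13 (lowest, median and highest) at day 0. The lowest day-0 value, of mouse 6, stood apart from the other 8, and the ruxolitinib array of the same mouse had the same level. The tofacitinib array of mouse 7 lay inside the day-0 range and the other 2 below it. Egfr fell by 0.80 ± 0.17 with tofacitinib (limma adjusted p = 0.00166) and by 0.92 ± 0.20 with DMSO (limma adjusted p = 0.00189). DMSO did not pass under a fixed block for the mouse (adjusted p = 0.0517) or without the DMSO array of mouse 2 (adjusted p = 0.0534). The ruxolitinib difference was -0.42 ± 0.20 and did not pass (limma adjusted p = 0.115). The second bright Egfr probe set gave -0.44 with tofacitinib, -0.43 with ruxolitinib and -0.76 with DMSO relative to day 0, the same direction and smaller for tofacitinib. A much dimmer one gave -0.85, -0.33 and -0.92 in that order, and the other 4 of 7 Egfr probe sets did not pass the filter on low values. The other probe sets of Erbb3 and Tgfa did not pass it either, and Erbb2, Epgn and Ereg have 1 probe set each.

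**Figure D1:**
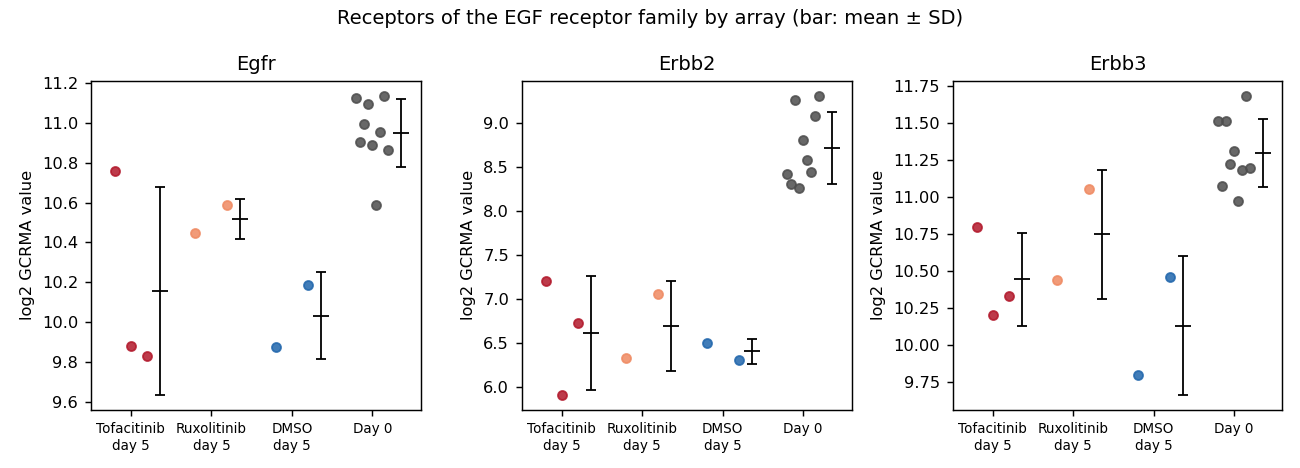
Log2 GCRMA values of Egfr, Erbb2 and Erbb3 (vertical axes, 1 point per array) by group, with the group mean and SD as a black bar beside the points. All 7 day-5 values of Erbb2 lie between 5.91 and 7.20, under the lowest day-0 value of 8.27, and the shifts of Egfr and Erbb3 are smaller with some overlap.

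The ligands went different ways. Epgn and Hbegf rose in all 3 day-5 groups, Btc fell most with DMSO, Ereg was lower with DMSO, and Tgfa passed in none. Epgn (Entrez gene 71920, chromosome 5) encodes epigen, a ligand of Egfr. It stood at 10.78, 9.57 and 9.22 in tofacitinib skin, 10.46 and 10.34 in ruxolitinib skin and 10.14 and 10.47 in DMSO skin, against 5.29 to 9.03 at day 0, where the median array, that of mouse 6, had 6.803. All 7 day-5 arrays lay above all 9 day-0 arrays. The rise was 6.52-fold with tofacitinib (2.71 ± 0.60, limma adjusted p = 0.00214), 11.1-fold with ruxolitinib (3.47 ± 0.71, limma adjusted p = 0.00193) and 9.60-fold with DMSO (3.26 ± 0.71, limma adjusted p = 0.00179).

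Day-0 skin of the mice that later had tofacitinib already held the most Epgn: 9.03, 7.98 and 7.82 in mice 7, 8 and 9, with 7.56 in mouse 3 next. Within mice, Epgn was higher at day 5 by 1.76, 1.59 and 1.40 with tofacitinib, by 5.17 and 3.54 with ruxolitinib (mice 4 and 6) and by 3.36 and 2.91 with DMSO (mice 2 and 3). The 3 tofacitinib changes were thus the smallest, although the levels reached at day 5 overlapped between the arms. With a fixed block for the mouse the rise was 1.58 with tofacitinib, 4.35 with ruxolitinib and 3.13 with DMSO (limma adjusted p = 0.00889, 0.00571 and 0.00495). The difference between the tofacitinib and ruxolitinib changes was -2.77 ± 0.47 in that fit and did not pass (limma adjusted p = 0.386).

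Hbegf (Entrez gene 15200, chromosome 18) encodes the heparin-binding ligand of the family, which keratinocytes release after wounding. It stood at 8.07, 7.82 and 6.27 with tofacitinib, 7.53 and 7.17 with ruxolitinib and 7.60 and 7.63 with DMSO, against 5.17, 5.67 and 7.68 (lowest, median and highest) at day 0. The groups overlapped because the day-0 array of mouse 7 had 7.68, while the other 8 day-0 arrays ended at 6.18. All 7 day-5 arrays exceeded that second-highest value. Hbegf rose by 1.45 ± 0.43 with tofacitinib (limma adjusted p = 0.0118), by 1.51 ± 0.50 with ruxolitinib (limma adjusted p = 0.0312) and by 1.75 ± 0.50 with DMSO (limma adjusted p = 0.010). These calls rested on few arrays. Leaving out either array of ruxolitinib (adjusted p = 0.192 and 0.106) or of DMSO (0.0860 and 0.0823), or tofacitinib mouse 7 (0.0585) or 8 (0.0706), ended the call. Without the day-0 array of mouse 7, a setting chosen after seeing the data, the rises were 1.70, 1.71 and 1.94 with tofacitinib, ruxolitinib and DMSO (adjusted p = 0.000692, 0.00269 and 0.000737). The dimmer Hbegf probe set gave 0.95, 0.87 and 0.90 in the same order.

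Btc (Entrez gene 12223, chromosome 5) encodes betacellulin, which binds Egfr and Erbb4. Its levels were 9.62, 9.61 and 8.05 with tofacitinib, 8.57 and 8.80 with ruxolitinib and 7.58 and 6.97 with DMSO, against 8.90, 9.80 and 10.29 (lowest, median and highest) at day 0. Both DMSO arrays were lower than each of the other 14. Btc fell by 2.45 ± 0.38 with DMSO (limma adjusted p = 0.000155), to 0.183 times its day-0 level. The tofacitinib difference was -0.68 ± 0.32 (limma adjusted p = 0.0917), and it passed under a fixed block for the mouse (-1.12, adjusted p = 0.0328) and without mouse 7 (adjusted p = 0.0312). The ruxolitinib difference was -1.01 ± 0.38 (limma adjusted p = 0.0533). The second Btc probe set placed both inhibitor groups close to day 0, with differences of -0.13 with tofacitinib, -0.11 with ruxolitinib and -1.63 with DMSO, so the 2 probe sets share the DMSO fall and differ on the inhibitor groups.

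Ereg (Entrez gene 13874, chromosome 5) encodes epiregulin, a ligand of Egfr and Erbb4. Its levels were 10.50, 10.61 and 9.51 with tofacitinib, 11.04 and 10.57 with ruxolitinib and 9.50 and 8.66 with DMSO, against 9.49, 10.42 and 11.05 (lowest, median and highest) at day 0. The DMSO arrays lay at and under the low end of the day-0 range and the inhibitor arrays inside it. Ereg fell by 1.36 ± 0.38 with DMSO (limma adjusted p = 0.00864), a call lost without the DMSO array of mouse 3 (-0.93, adjusted p = 0.167). The differences with tofacitinib (-0.28 ± 0.32, limma adjusted p = 0.488) and ruxolitinib (0.42 ± 0.38, limma adjusted p = 0.403) did not pass.

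Tgfa (Entrez gene 21802, chromosome 6), transforming growth factor alpha, is a keratinocyte ligand of Egfr. It stood at 6.75, 6.90 and 5.37 with tofacitinib, 6.02 and 6.60 with ruxolitinib and 6.51 and 6.36 with DMSO, against 5.52, 6.41 and 6.67 (lowest, median and highest) at day 0. The arrays of the 4 groups overlapped throughout. Its differences from day 0 had 95% intervals of -0.58 to 0.64 with tofacitinib, -0.66 to 0.79 with ruxolitinib and -0.57 to 0.88 with DMSO, which leaves room for a change of under 1 log2 unit either way.

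**Figure D2:**
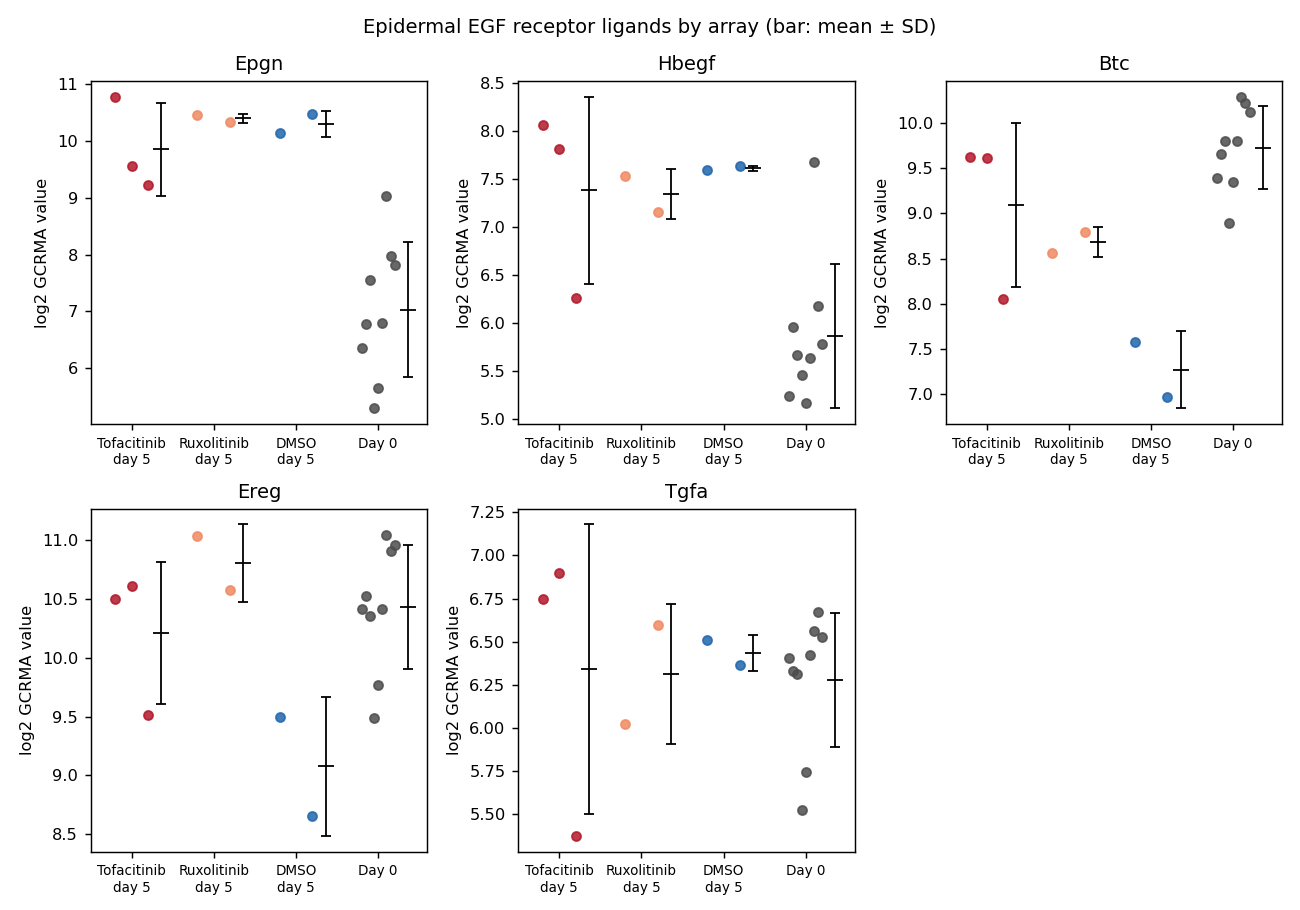
Log2 GCRMA values of Epgn, Hbegf, Btc, Ereg and Tgfa (vertical axes, 1 point per array) by group, with the group mean and SD as a black bar. Epgn values at day 5 lie between 9.22 and 10.78 and above all day-0 values, the 2 DMSO values of Btc (7.58 and 6.97) lie under all others, and Tgfa overlaps in all groups.

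Epgn, Ereg, Areg and Btc lie next to one another on chromosome 5, between Mthfd2l and Parm1, with no other protein-coding gene among them in RefSeq's GRCm38.p6 annotation. Neighbours in this block of 4 ligand genes therefore went opposite ways in the same skin: Epgn rose and Ereg and Btc fell with DMSO. The promoters of the genes with the largest rise and falls are given from RefSeq (GRCm38.p6), from 250 bases before to 50 bases after the annotated start, 5′ to 3′ on the gene's strand. The Epgn promoter is chr5:91027267-91027566 on the plus strand, that of Btc is chr5:91402945-91403244 on the minus strand and that of Erbb2 is chr11:98412234-98412533 on the plus strand.
Epgn: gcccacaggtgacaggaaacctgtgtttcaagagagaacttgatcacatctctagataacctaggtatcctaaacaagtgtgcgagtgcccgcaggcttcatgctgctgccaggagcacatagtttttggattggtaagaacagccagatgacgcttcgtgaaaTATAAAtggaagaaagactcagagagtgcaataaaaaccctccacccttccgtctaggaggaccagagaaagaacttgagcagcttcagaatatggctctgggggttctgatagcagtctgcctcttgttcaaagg
Btc: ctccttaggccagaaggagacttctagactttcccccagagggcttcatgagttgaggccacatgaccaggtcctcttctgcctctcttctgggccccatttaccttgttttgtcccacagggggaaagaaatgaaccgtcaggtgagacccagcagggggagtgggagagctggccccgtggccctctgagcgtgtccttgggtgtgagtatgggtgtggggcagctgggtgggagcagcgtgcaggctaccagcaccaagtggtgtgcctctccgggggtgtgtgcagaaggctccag
Erbb2: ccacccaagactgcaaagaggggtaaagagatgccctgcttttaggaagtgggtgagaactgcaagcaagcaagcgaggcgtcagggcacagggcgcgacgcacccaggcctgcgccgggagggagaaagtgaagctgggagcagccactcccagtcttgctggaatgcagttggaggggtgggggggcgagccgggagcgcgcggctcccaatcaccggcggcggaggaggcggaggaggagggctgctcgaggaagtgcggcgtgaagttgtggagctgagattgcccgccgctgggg
Capitals mark the letters TATAAA, which begin 86 bases before the start of Epgn. Of the 8 measured genes 5 had a promoter in the table (Egfr, Erbb2, Tgfa, Btc and Epgn), and each was searched on both strands for the AP-1 letters TGANTCA, the STAT letters TTCNNNGAA and, added later, TATAAA. None of the 5 held the AP-1 letters (7.81% of all 32851 promoters did) or the STAT letters (8.30%), and the letters TATAAA were found in that of Epgn (13.6% of all promoters). The Epgn promoter had a GC content of 47.3%, against 60.3% for Btc, 66.0% for Erbb2 and a median of 52.7% over all promoters. These are letters in a window of 300 bases and not measured binding sites.

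Counted over the family, 5 of 8 genes passed with tofacitinib (2 higher, 3 lower), where 50.1% of all tested genes passed (22.7% higher, 27.4% lower). With ruxolitinib 3 of 8 passed (2 higher, 1 lower), against 34.0% of all tested genes (12.5% higher, 21.4% lower). With DMSO 7 of 8 passed (2 higher, 5 lower), against 51.1% of all tested genes (22.2% higher, 28.9% lower). About every other gene on the array changed between the days in the tofacitinib and DMSO arms, so the counts alone do not set the family apart. Group arrays did not overlap with day 0 for 3 of 8 genes with tofacitinib (31.2% of all tested genes), 3 of 8 with ruxolitinib (41.1%) and 5 of 8 with DMSO (50.5%). The median difference of the 8 genes was -0.48, -0.18 and -1.04 with tofacitinib, ruxolitinib and DMSO, beside -0.02, -0.03 and -0.05 for all tested genes. These 3 comparisons share their 9 day-0 arrays.

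The within-mouse changes tell which of these shifts recurred from mouse to mouse. Epgn and Hbegf were higher at day 5 in 7 of 7 mice, by 1.40 to 5.17 and by 0.39 to 2.07. Erbb2 and Btc were lower in 7 of 7 mice, by changes of -3.17 to -1.25 and of -2.83 to -0.33. The Btc changes are those of its brighter probe set. Its other probe set had group differences from day 0 of -0.13 with tofacitinib, -0.11 with ruxolitinib and -1.63 with DMSO. Egfr and Erbb3 were lower in 6 of 7, the exception in both being ruxolitinib mouse 6, whose Erbb3 change was 0.08. Ereg was lower in all 3 tofacitinib mice and both DMSO mice and higher in both ruxolitinib mice (1.55 in mouse 4 and 0.16 in mouse 6). Mouse 4 had the lowest Ereg level of all day-0 arrays. Tgfa was higher in 6 of 7 mice by at most 0.50, and lower by 1.15 in tofacitinib mouse 9.

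**Figure D3:**
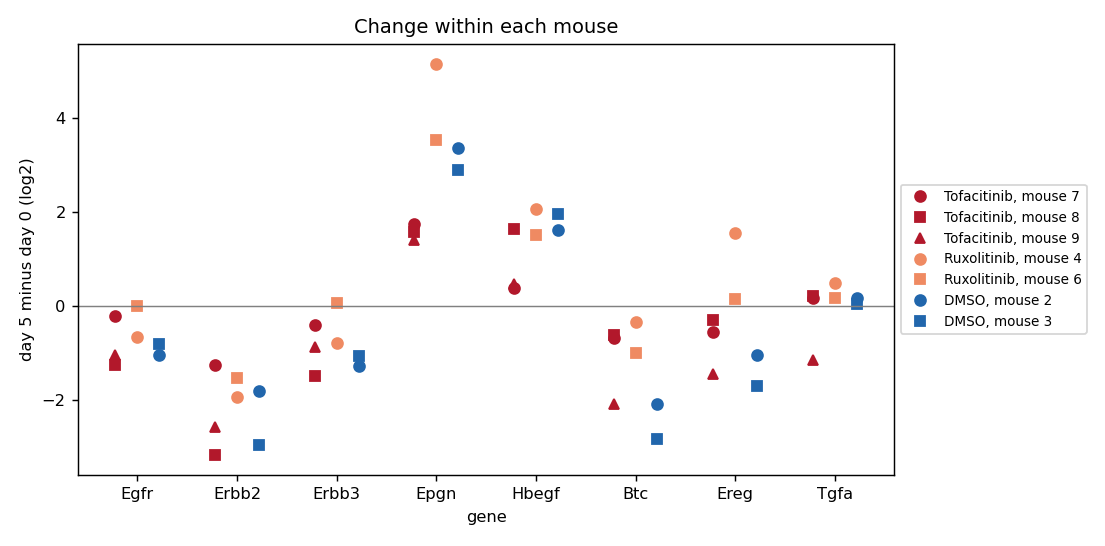
Change from day 0 to day 5 within each of 7 mice (vertical axis, day 5 minus day 0 on the log2 scale) for the 8 measured genes, coloured by treatment with a symbol per mouse. With the brightest probe set of each gene, Epgn and Hbegf lie above 0 and Erbb2 and Btc below 0 in all 7 mice.

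The vehicle comparison asks what the inhibitors add to the second biopsy and the solvent. None of the 8 genes passed: 0 of 8 for tofacitinib against DMSO (0.165% of all tested genes passed), 0 of 8 for ruxolitinib against DMSO (0.521%) and 0 of 8 for the mean of both (0.935%). In limma the genes with an unadjusted p under 0.05 numbered 2, 3 and 2 in these comparisons. The share of all tested genes under that rule was not computed, so whether these counts set the family apart cannot be told. The widest gaps were those of Btc and Ereg. All 5 inhibitor arrays of Btc (8.05 to 9.62) lay above both DMSO arrays (7.58 and 6.97), and the mean of both inhibitors was 1.61 ± 0.42 above DMSO (95% interval 0.72 to 2.50, limma adjusted p = 0.0863). For Ereg the inhibitor arrays (9.51 to 11.04) also lay above both DMSO arrays (9.50 and 8.66), by 1.43 ± 0.42 (95% interval 0.54 to 2.32, limma adjusted p = 0.118). All inhibitor arrays lay above both DMSO arrays for 2 of 8 genes and for 8.72% of all tested genes.

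Whether these 2 differences passed depended on 1 array. Tofacitinib mouse 9 had the lowest value of its group for 5 of 5 ligands. Without it, Btc was 1.87 above DMSO for the mean of both inhibitors (adjusted p = 0.0112) and 2.33 for tofacitinib (adjusted p = 0.0162), and Ereg was 1.60 above DMSO for the mean of both (adjusted p = 0.0436). Leaving out a DMSO array moved the size of both differences more, and neither then passed. Without DMSO mouse 2 they were 1.92 for Btc and 1.85 for Ereg, and without DMSO mouse 3 they were 1.31 and 1.01. Over all tested genes, 374 passed for the mean of both without tofacitinib mouse 9, against 113 with it. Under a fixed block for the mouse the differences were 1.56 for Btc and 1.41 for Ereg, and neither passed (adjusted p = 0.518 and 0.528).

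For the mean of both inhibitors, the risen ligands and the fallen receptors overlapped with DMSO. Epgn differed from DMSO by -0.18 ± 0.77 (95% interval -1.83 to 1.47) and Hbegf by -0.27 ± 0.55 (-1.45 to 0.90). Erbb2 differed by 0.26 ± 0.36 (-0.51 to 1.03), Egfr by 0.31 ± 0.22 (-0.16 to 0.78) and Erbb3 by 0.47 ± 0.24 (-0.04 to 0.98). The interval of Epgn is the widest of these and spans a difference of 1 log2 unit from vehicle in either direction.

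Tofacitinib and ruxolitinib, which differ in the ring carried by the shared pyrrolopyrimidine, were compared at the same day, with doses unknown. This was 1 pair of compounds, and 0 of 8 genes passed (0.0248% of all tested genes, 3 of 12087) with 0 at an unadjusted p under 0.05. The differences, tofacitinib minus ruxolitinib, ran from -0.76 ± 0.84 for Epgn (95% interval -2.55 to 1.03) to 0.33 ± 0.45 for Btc (-0.64 to 1.29). The narrowest interval was that of Egfr, -0.88 to 0.13. A miss of the threshold does not show that the compounds act alike.

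**Figure D4:**
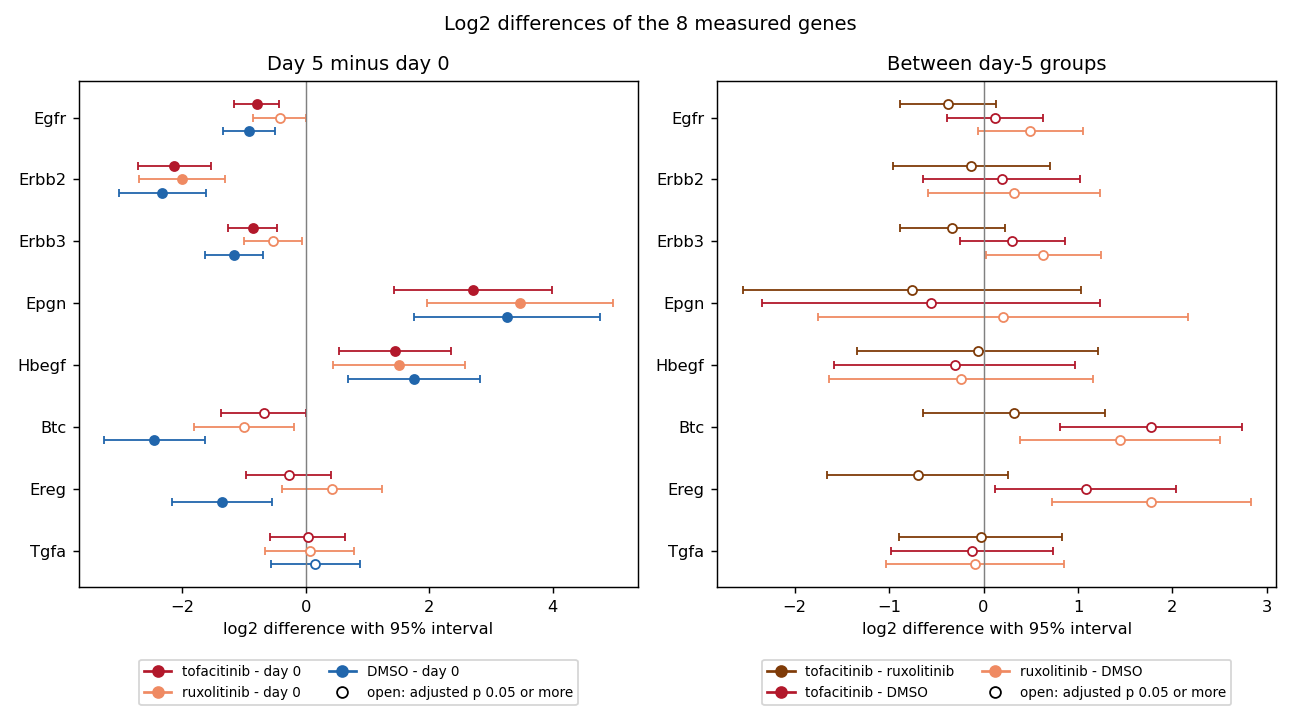
Log2 differences of the 8 genes with 95% intervals (horizontal axes), at left for each day-5 group minus day 0 and at right between day-5 groups. Filled points passed at an adjusted p under 0.05 and are all on the left side, where Epgn reaches 3.47 and Btc -2.45.

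Other genes of the pathway were read from lists chosen with earlier results known, and their counts stand against the same shares of all tested genes (22.7% higher and 27.4% lower with tofacitinib, 12.5% and 21.4% with ruxolitinib, 22.2% and 28.9% with DMSO). Of 7 genes for ligand shedding, 1 was higher and 2 were lower with tofacitinib, 0 and 2 with ruxolitinib and 1 and 3 with DMSO, which is near those shares. Adam17, the protease that sheds several of these ligands, fell by 0.69 ± 0.13 with tofacitinib, 0.51 ± 0.15 with ruxolitinib and 0.71 ± 0.15 with DMSO (limma adjusted p = 0.000681, 0.020 and 0.0018). Rhbdf1, which encodes iRhom1, a partner of that protease, fell by 1.16 ± 0.18, 0.67 ± 0.21 and 1.17 ± 0.21 in the same order (limma adjusted p = 0.000131, 0.0211 and 0.000447). Egf, 1 of 2 other ligands of the family that were tested, was 1.51 ± 0.48 higher with tofacitinib (limma adjusted p = 0.0171) and 2.04 ± 0.56 higher with DMSO (limma adjusted p = 0.00802), while its difference of 1.10 ± 0.56 with ruxolitinib did not pass (limma adjusted p = 0.14). The other, the neuregulin gene Nrg4, passed in none.

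Of 16 genes of receptor feedback and turnover, 2 were higher and 5 lower with tofacitinib, 4 and 3 with ruxolitinib and 2 and 5 with DMSO. That is 7 of 16 in each arm, beside 50.1%, 34.0% and 51.1% of all tested genes. Lrig3, of the LRIG family whose member Lrig1 restrains EGF receptors, fell by 1.53 ± 0.21 with tofacitinib, 1.41 ± 0.24 with ruxolitinib and 2.18 ± 0.24 with DMSO (limma adjusted p = 5.35e-05, 0.000598 and 1.12e-05). Lrig2, of the same family, fell by 1.10 ± 0.11, 0.54 ± 0.13 and 0.79 ± 0.13, but its other kept probe set was higher at day 5 by 0.95, 1.94 and 0.83, so its direction is not settled. Some feedback inhibitors of the ERK pathway were singled out after their values were seen, and these went both ways. Spry4 rose by 2.22 ± 0.33, 1.97 ± 0.38 and 1.25 ± 0.38, in the same order. Its mean lay under the filter value of 4 at day 0 and above it in each day-5 group. Spry4 may thus have entered the test through day-5 arrays, which favours a rise. Dusp6 rose by 0.89 ± 0.23, 1.29 ± 0.27 and 1.23 ± 0.27, in that order. Spry1 fell by 0.74 ± 0.28 with tofacitinib and 1.22 ± 0.33 with DMSO, and Spred2 fell by 0.68 ± 0.17 and 1.17 ± 0.20 in these 2 arms, while their ruxolitinib differences of -0.72 ± 0.33 and -0.40 ± 0.20 did not pass (limma adjusted p = 0.0994 and 0.14). Their relatives in the list moved less: Spry2, Dusp4 and Dusp5 passed in no arm, and Spred1 passed with ruxolitinib alone (0.44 ± 0.12). The median difference of all 16 genes was -0.12, 0.04 and -0.07, close to that of all tested genes.

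Of 15 genes that ERK signalling can induce, 4 were higher and 3 lower with tofacitinib, 3 and 1 with ruxolitinib and 4 and 2 with DMSO, again near or below the shares of all tested genes, apart from the higher calls with ruxolitinib (3 of 15). Fosl1, an AP-1 subunit, was higher by 4.95 ± 0.86, 5.98 ± 1.02 and 5.29 ± 1.02 in that order, (limma adjusted p = 0.000396, 0.00054 and 0.000786), though its dimmer probe set gave 1.34, 1.40 and 1.10. Egr1, an immediate early factor, differed by 0.07 ± 0.31, 0.23 ± 0.37 and 0.01 ± 0.37 and passed in none. Ccnd1, cyclin D1, fell by 1.18 ± 0.19, 0.90 ± 0.23 and 1.34 ± 0.23 (limma adjusted p = 0.000247, 0.00734 and 0.000317). Plaur, the urokinase receptor, rose by 0.89 ± 0.15 with tofacitinib and 1.05 ± 0.18 with DMSO, while its difference of 0.43 ± 0.18 with ruxolitinib did not pass (limma adjusted p = 0.0782). Its mean was 3.996 with tofacitinib, 3.51 with ruxolitinib and 4.14 with DMSO, against 3.10 at day 0. All day-0 arrays lay under the filter value of 4, so Plaur entered the test through day-5 arrays, which favours a rise. Of 11 adaptors and core RAS-MAPK genes 3 were higher and 3 lower with tofacitinib, 3 and 1 with ruxolitinib and 5 and 3 with DMSO, beside 50.1%, 34.0% and 51.1% of all tested genes called in either direction. The adaptor Gab1 fell by 0.59 ± 0.11, 0.49 ± 0.13 and 0.65 ± 0.13. Sos2, a guanine nucleotide exchange factor for RAS, rose by 0.45 ± 0.13, 0.44 ± 0.15 and 0.71 ± 0.15. In the comparisons between day-5 groups 0 genes of these 5 lists passed.

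Cell type markers moved with the same groups. Whole skin was measured, so fewer cells of a type and less RNA per cell cannot be told apart. All 9 basal keratinocyte markers (Krt5, Krt14 and others) were lower in each arm, beside 27.4%, 21.4% and 28.9% of all tested genes with tofacitinib, ruxolitinib and DMSO. Their mean lay between 10.93 and 11.20 with tofacitinib, 10.85 and 11.26 with ruxolitinib and 10.81 and 10.92 with DMSO, against 11.84 to 12.27 at day 0, so it separated the days as Erbb2 did. Suprabasal markers, like Btc and Ereg, were lowest with DMSO. Their mean was 11.58 to 12.00 with tofacitinib, 11.70 to 11.83 with ruxolitinib, 10.86 to 11.29 with DMSO and 11.56 to 12.21 at day 0. Of 8 suprabasal markers, 2 were higher for the mean of both inhibitors than with DMSO, beside 0.836% of all tested genes. Against day 0, 6 were lower with DMSO, 2 with tofacitinib and 0 with ruxolitinib.

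Activated keratinocyte markers averaged 7.27 to 8.08 with tofacitinib, 7.32 to 7.51 with ruxolitinib and 7.29 to 7.31 with DMSO, against 5.56 to 7.22 at day 0. Of these 8 markers, 4 were higher with tofacitinib, 2 with ruxolitinib and 3 with DMSO, and 1 was lower in each arm. Of all tested genes, 22.7%, 12.5% and 22.2% were higher in these arms. All 7 endothelial markers were higher in each arm, and 5 of 8 fibroblast markers were. The endothelial markers averaged 5.25, 5.08 and 5.53 with tofacitinib, ruxolitinib and DMSO, against 3.37 at day 0. The mast cell markers averaged 3.67 at day 0. Both day-0 means lie under the filter value of 4, so markers of these 2 lists may have entered the test through day-5 arrays, which favours a rise. All 5 mast cell markers were higher with tofacitinib and with ruxolitinib and 1 of 5 with DMSO, and of 6 macrophage and monocyte markers 1, 1 and 2 were higher, near the share of all tested genes. Compared directly with DMSO, 0 of 5 mast cell markers passed for tofacitinib, ruxolitinib or the mean of both. All 4 tested T cell markers were lower in each arm, and of 9 skeletal muscle markers 5, 0 and 4 were higher. Of 8 T cell markers listed 7 had a probe set, and the 4 tested are those that passed the filter. They averaged 6.73 at day 0 and 3.98, 3.89 and 3.94 with tofacitinib, ruxolitinib and DMSO, about the filter value of 4. They may thus have entered the test through day-0 arrays, which favours a fall. No list had a marker at the level of the control probe sets on all arrays. The part of these cell types in the values of the 8 genes was not tested.

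**Figure D5:**
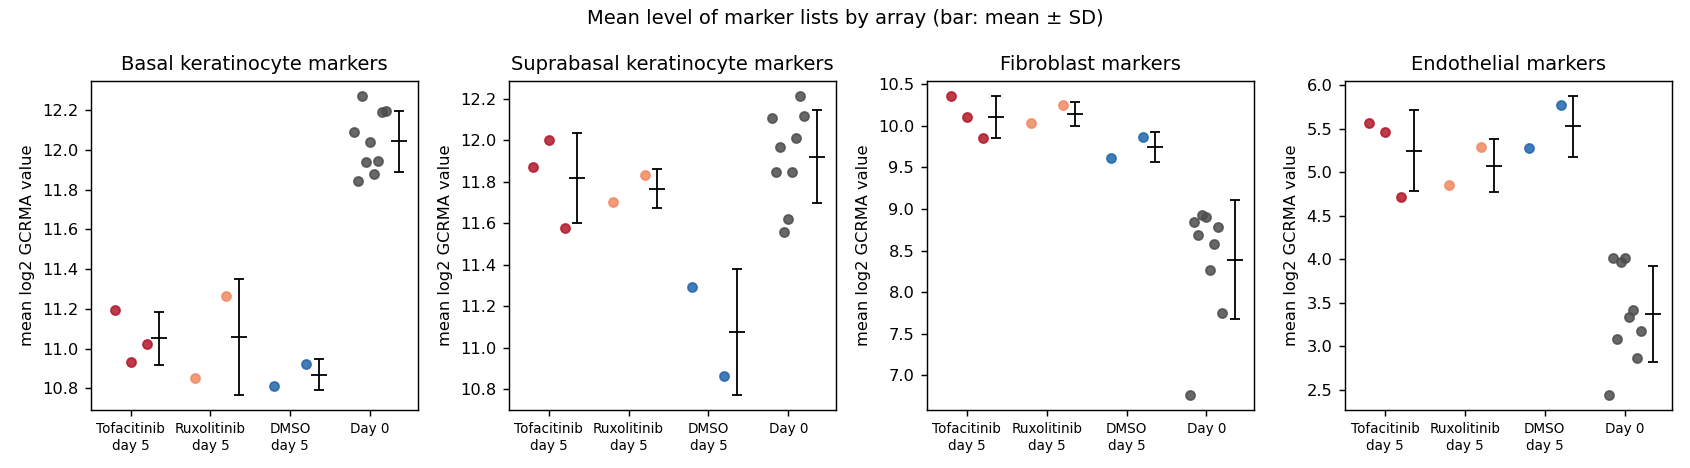
Mean log2 GCRMA value of 9 basal keratinocyte, 8 suprabasal keratinocyte, 8 fibroblast and 7 endothelial markers (vertical axes, 1 point per array) by group, with the group mean and SD as a black bar. Basal markers separate day 5 from day 0 (at most 11.26 against at least 11.84), and suprabasal markers are lowest with DMSO.

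Before treatment the mice already differed in their ligands. At day 0 mouse 7 had the highest value for 4 of 5 ligands and mouse 4 the lowest for 4 of 5. Epgn ran from 5.29 to 9.03, with an SD of 1.19, and Hbegf from 5.17 to 7.68, with an SD of 0.75. The day-0 SD was 0.53 for Ereg, 0.46 for Btc and 0.39 for Tgfa. Among the receptors it was 0.17 for Egfr, 0.23 for Erbb3 and 0.41 for Erbb2, so Erbb2 and Tgfa varied about alike.

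Among genes outside the family, likeness was measured as the root mean square difference, over 16 arrays, of log2 values centred on each gene's own day-0 mean. It is given for the 4 genes with the largest F statistic against day 0. Nearest to Erbb2 was Rgs12, a regulator of G-protein signalling (0.202), and nearest to Erbb3 was Ppib, a cyclophilin of the endoplasmic reticulum (0.161). Nearest to Btc was Il1f5, an antagonist of the interleukin-36 receptor (0.316). Il1f5 differed from day 0 by -0.70 with tofacitinib, -0.75 with ruxolitinib and -2.23 with DMSO. Nearest to Epgn was Nr4a2, an orphan nuclear receptor, at a larger distance (0.809), with differences of 2.57, 3.05 and 2.55.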

How the data were processed

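Whole-skin RNA was extracted with a column kit, amplified as cDNA (NuGEN Ovation) and labelled with biotin, per the labels' protocols. The deposited values are log2 values per probe set made with GCRMA, per the submitters' processing notes, with the version and the set of arrays normalized at once not given in the sources used here. Of 45101 probe sets, 34958 had 1 gene symbol, 932 had several and 9211 were not listed, and symbols were checked by gene ID against RefSeq (34754 matched, 0 changed). Probe sets above 4 on the log2 scale in 2 or more arrays were kept, and each gene was read from its brightest one by mean (12087 of 18194 genes).

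Genes were fitted with limma 3.58.1 in R 4.3.3, with 4 group means on 16 arrays and a random block for the mouse (consensus correlation 0.0982 by duplicateCorrelation), in 7 comparisons. Scripts were tested on simulated data. Mouse numbers pair the samples, since both biopsies came from the same animal per the labels. Deviations of a mouse's 2 arrays from their group means correlated at over 0.1 in 2 of 7 pairs (range -0.183 to 0.178). The day-0 array that correlated best with a day-5 array was that of the same mouse in 1 of 7 pairs. In the arms with 2 arrays the deviations of both arrays are mirror images of each other. The 7 pairs are therefore not independent, and this check cannot decide how far the values follow the pairing. The other lists' named genes were the 2 with the smallest p for DMSO against day 0 and for both inhibitors against DMSO, plus Fosl1 and Egr1, of which part is printed. Spry1, Spry4, Spred2 and Dusp6 were picked as a group after their values were seen. Members, lists and tests were chosen with earlier results of these data known.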

Additional observations from a re-analysis of the deposited data

Results flagged for a closer look

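The day-0 array of mouse 7 stood apart for Hbegf, at 7.68 with the next array at 6.18, and the day-0 array of mouse 6 stood apart for Egfr, at 10.59 below the other 8. Chance gives such a gap in about 1 of 20 groups, and 8 genes were looked at. The within-mouse change of Ereg had opposite signs in the ruxolitinib mice (higher in 2 of 2) and in the other arms (lower in 3 of 3 with tofacitinib and 2 of 2 with DMSO). These mice started from different levels. At day 0 ruxolitinib mouse 4 had the lowest Ereg of all arrays (9.49), and mouse 6 had 10.42. Tofacitinib mice 7, 9 and 8 had the highest (11.05, 10.96 and 10.91). The mean change with tofacitinib minus that with ruxolitinib was -1.62, and the mean change with ruxolitinib minus that with DMSO was 2.22. With the mouse as a fixed block neither difference passed (limma adjusted p = 0.386 and 0.248).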

How the results depend on the processing

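The alternatives were a fixed replicate block for the mouse, no block, the compared groups alone, no filter or a filter at 6, the mean of a gene's probe sets, quantile normalization, a minimum log2 change of 1, leaving out each day-5 array (a lone array left in an arm is assumed to vary like the other groups), and leaving out day-0 mouse 7 (chosen after seeing the data). Of 640 recomputed differences of the 8 genes, which leave out the setting with a minimum change, 590 kept direction and side of the threshold, 10 lost the call, 8 gained it and 32 that passed in neither setting changed sign. No call changed direction. With the compared groups alone 6 genes passed for ruxolitinib against day 0, against 3, the added ones being Egfr, Erbb3 and Btc. At a minimum change of 1, 3 genes passed for tofacitinib against day 0, against 5 (Egfr and Erbb3 were lost), and 6 for DMSO against day 0, against 7 (Egfr was lost). Leaving out 1 array gave 0 to 1 genes for tofacitinib against DMSO and 0 to 2 for the mean of both inhibitors against DMSO, the higher count in each without tofacitinib mouse 9. The fixed replicate block changed the calls of Egfr with DMSO, Erbb2 with ruxolitinib and Btc with tofacitinib and no other call of the 8 genes.

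Counts over all tested genes moved more. Against day 0, ruxolitinib had 1324 calls with the fixed replicate block, 2315 without mouse 4, 1999 without mouse 6 and 1877 at a minimum change of 1, against 4104. DMSO had 3701 with the block, 3470 without mouse 2, 4001 without mouse 3 and 3071 at a minimum change of 1, against 6178. Tofacitinib had 3969 without mouse 9 and 2380 at a minimum change of 1, against 6055. Between day-5 groups the block gave 0 calls throughout. Leaving out 1 array gave 0 (without DMSO mouse 2) to 126 (without tofacitinib mouse 9) calls for tofacitinib against DMSO, 1 to 16 for ruxolitinib against DMSO and 0 to 374 for both, against 20, 63 and 113. The compared groups alone gave 0, 3 and 0 there, no filter 11 and 71 for tofacitinib and both, a filter at 6 gave 11 for tofacitinib, and the mean of probe sets 12 for tofacitinib and 110 for ruxolitinib. Tofacitinib against ruxolitinib stayed between 0 and 9, against 3. The cause of these changes was not tested. With 2 or 3 arrays in a treated group, differences between day-5 groups are known only within wide intervals.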
